A study of Danio rerio with 54 samples.

Results

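The Sox, Pax, Tbx, Zic, Gata and Fox genes were followed in whole zebrafish embryos and larvae, and 127 of the 31953 genes in the deposited table belonged to them. A gene was taken when its name in the table began with sox, pax, tbx or zic and a number, with gata and a number up to 6, or with fox, a letter up to q and a number. The choice used names only and no measured value. The 127 genes comprised 53 Fox, 27 Sox, 17 Tbx, 15 Pax, 8 Gata and 7 Zic genes.

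The libraries came from nfe2 knockout fish and from wild-type fish of the AB strain. Each genotype was dosed with 20 µM diquat, with 1 mM tert-butyl hydroperoxide (tBOOH), or with water alone, beginning 2, 48 or 96 h after fertilisation (hpf). Both chemicals raise oxidative stress, diquat as a herbicide that cycles electrons to oxygen and tBOOH as a peroxide, and nfe2 encodes a cap'n'collar transcription factor related to Nrf2. Each of the 18 groups held 3 libraries, and each library was made from a pool of 30 whole embryos or larvae. One label gives the stage as the sampling time, while the treatment protocol describes 4 h of dosing from that stage and 4 h of recovery before freezing. The stages below are therefore named by the start of dosing. The summed value of 6 gastrula and tailbud markers was 204 to 333 in knockout and 205 to 258 in wild-type libraries at 2 hpf, and at most 16.1 in knockout and 17.4 in wild-type libraries at 48 hpf.

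The knockout line descends from a single founder deletion of 8 bases in exon 3 of nfe2, made with a TALEN pair in fish of mixed AB and TL background. Genotype and strain background thus cannot be told apart in any knockout against wild-type comparison. The deleted bases, in capitals, and the 2 TALEN target sites, in lower case, are shown 5′ to 3′ because they define the knockout genotype.
Deleted bases: GCACATGA
First TALEN target: tcacccacctcttatgag
Second TALEN target: catgactacacgtggtca
The transcript of nfe2 was still counted in the knockout, at 8.17 to 34.4 (median 18.02) at 2 hpf against 1.60 to 19.9 (median 7.73) in wild-type libraries. At 48 hpf it stood at 0 to 2.95 in knockout libraries and 0 to 1.88 in wild-type libraries, and at 96 hpf at 0 to 4.39 in knockout and 0 to 3.44 in wild-type libraries. Counts of a transcript with a small deletion check the labels little.

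Values are normalised read counts, that is, the reads assigned to a gene divided by a size factor of its library, and they are not corrected for gene length, so levels are compared between samples and not between genes. The libraries held 0.527 to 1.04 M (mega) reads in genes, with a median of 0.772 M, against 25 M reads per sample stated in the labels. Of the 127 genes, 26 had fewer than 54 reads over the 54 libraries, and 2 of these, foxd3 and the sox4a gene ENSDARG00000096389, had none. These 26 could not be followed, and why their counts were low was not tested. A gene was tested at a stage when its value was at least 10 in at least 3 libraries, which admitted 49 members at 2 hpf, 58 at 48 hpf and 56 at 96 hpf, and 73 members when the 3 stages were fitted together. A gene could pass through the 1 group or stage where it is high, and the filter then favours a difference in that direction. Differences are on the log2(value + 1) scale, which understates the change of low values. They were tested with limma, and a gene was called at an adjusted p under 0.05, with Benjamini-Hochberg adjustment over all genes tested.

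The libraries were strand-specific, and the strand setting used for counting is not given in the sources used here. The mitochondrial gene mt-nd6, the one of 13 mitochondrial mRNAs that lies on the opposite strand, was above the median of the other 12 in 54 of 54 libraries and was the highest in 44. Reads from the strand of a gene and reads from the opposite strand cannot be told apart in these values. A value given below for a gene may therefore count reads from the opposite strand, and this was not tested. Of the 120 members found by symbol in the RefSeq gene table, 60 have a span that overlaps another gene. Of the members described below, tbx6 overlaps nif3l1, gata2a overlaps pbrm1, sox13 overlaps 14 genes, and foxg1d, sox17 and foxo4 each overlap a protein-coding gene without a name. Noncoding RNA genes overlap tbx16, tbx2a, sox2, sox3, sox5, sox11b, sox19a, pax6b, foxp4, foxp1b and foxo3b, and the other overlaps of described members stand beside their results. The described members foxk2, tbx6l, sox4a (ENSDARG00000004588) and both tbx1 genes were not found in that table, so their overlaps are not known. In whole animals, fewer cells of a type and less RNA per cell cannot be told apart either.

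Each of these families is defined by its DNA-binding domain. Sox proteins carry an HMG box, Pax proteins a paired domain, Tbx proteins a T-box, Zic and Gata proteins zinc fingers, and Fox proteins a forkhead domain. In the early vertebrate embryo they divide the tissue among themselves: T-box genes act in mesoderm, Gata and FoxA genes in endoderm, blood and heart, Zic and SoxB genes in the neural plate, Pax genes in brain, eye, ear and kidney, and SoxC genes in newly formed neurons. Many of them act in sequence, with a gastrula set giving way to an organ set.

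In water, most members had a different value at 48 hpf than at 2 hpf in both genotypes. In knockout embryos 33 of the 73 members tested rose and 19 fell, so 71.2% were called beside 57.8% of all genes tested, of which 38.9% rose and 18.9% fell. In wild-type embryos 39 rose and 20 fell, so 80.8% were called beside 58.4% of all genes, of which 38.3% rose and 20.2% fell. The median of all genes moved by 0.41 on the log2 scale in knockout and by 0.39 in wild-type embryos, and the changes given here stand against that shift. With trimmed-mean rescaling of the libraries it moved by 0.29 in knockout and by 0.28 in wild-type embryos, and the members split into 32 that rose and 21 that fell in knockout and into 39 that rose and 21 that fell in wild-type embryos. The 46 members called in both genotypes were 88.5% of those called in knockout and 78.0% of those called in wild-type embryos, and all 46 had the same direction. The like shares over all genes were not counted. Each genotype had its own water libraries.

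The T-box genes of the mesoderm were among the falls of the greatest size. The paraxial mesoderm regulator tbx16 had 0 reads in all 6 water libraries at 48 hpf, against 23.9, 33.7 and 19.3 in knockout and 39.1, 36.3 and 35.4 in wild-type libraries at 2 hpf. With 3 reads over a group as the limit that a count of 0 allows, tbx16 was at least 29.7-fold lower in knockout and at least 35.3-fold lower in wild-type embryos at 48 than at 2 hpf. The libraries of the 2 stages did not overlap. Within single stages tbx16 passed the filter on values at 2 hpf alone, so the filter favoured a fall.

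The presomitic genes tbx6 and tbx6l followed the same course. Values of tbx6 were 0, 0 and 0 at 48 hpf against 50.7, 46.5 and 43.2 at 2 hpf in knockout embryos, a fall of at least 54.2-fold. In wild-type embryos tbx6 was at 0, 0 and 1.66 at 48 hpf against 55.9, 58.9 and 32.8 at 2 hpf. Values of tbx6l were 0, 0 and 0 at 48 hpf against 36.8, 24.2 and 19.9 at 2 hpf in wild-type embryos, at least 25.8-fold lower, and 0, 0 and 2.40 against 25.3, 20.0 and 14.7 in knockout embryos. No library at 48 hpf reached the lowest library at 2 hpf for either gene. Like tbx16, both genes passed the filter on values at 2 hpf alone, which favoured a fall. Of the other T-box genes, tbx2b, which acts in eye and heart patterning, rose by 2.97 in knockout and by 3.60 in wild-type embryos on the log2 scale, and its relative tbx2a by 1.34 in knockout and by 1.91 in wild-type embryos.

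All 4 Gata genes tested fell between 2 and 48 hpf in both genotypes. All 4 passed the filter on values at 2 hpf but only 1 did at 48 hpf, so for the others the filter favoured a fall. The endoderm and heart regulator gata5 had 0, 0 and 0.80 at 48 hpf against 11.97, 8.20 and 16.5 at 2 hpf in knockout embryos, and 0, 0 and 0 against 16.9, 11.3 and 18.1 in wild-type embryos, at least 14.8-fold lower. Its relative gata6 had 0, 4.07 and 0.80 at 48 hpf against 31.7, 16.4 and 41.3 at 2 hpf in knockout embryos, and 0.842, 1.47 and 0 against 19.9, 25.0 and 32.0 in wild-type embryos. The stages did not overlap for either gene. The blood and endothelial regulator gata2a fell by 1.24 in knockout and by 1.59 in wild-type embryos on the log2 scale, and gata3, which acts in non-neural ectoderm, ear and neurons, fell by 1.23 in knockout and by 1.59 in wild-type embryos. The erythroid regulator gata1a was too low to be tested at any stage.

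Other genes of the gastrula also fell. The neural plate gene zic2b averaged 5.82 at 48 hpf against 157 at 2 hpf in knockout embryos and 9.10 against 170.1 in wild-type embryos, falls of 4.54 in knockout and 4.15 in wild-type embryos on the log2 scale. The endoderm gene sox17 had 0 reads in all 6 water libraries at 48 hpf, against 10.6, 7.29 and 15.6 in knockout and 8.43, 11.3 and 9.50 in wild-type libraries at 2 hpf. It was at least 12.9-fold lower in knockout and at least 9.31-fold lower in wild-type embryos. The forkhead genes foxd5, of the neural plate and tailbud, and foxi1, of ear placode and ionocytes, fell as well, foxi1 by 3.32 in knockout and by 2.75 in wild-type embryos. The genes sox17, foxd5 and foxi1 passed the filter on values at 2 hpf alone, so for them the filter favoured a fall.

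A list of 35 other gastrula mesoderm and segmentation genes, none of them a member, was read beside these. The list was chosen with earlier results of these data known, so its counts only describe the listed genes. Of its 20 tested genes, 0 rose and 15 fell in knockout embryos, and 1 rose and 14 fell in wild-type embryos between 2 and 48 hpf. The list median was -2.04 in knockout and -2.47 in wild-type embryos, beside 0.41 in knockout and 0.39 in wild-type embryos for all genes. The filter on values applied to the list as well and favoured a fall for any gene that passed at 2 hpf alone.

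Among the members that rose were genes known from neurons and brain. The SoxC gene sox12 had 64.3, 35.8 and 66.4 at 48 hpf against 0.704, 0.911 and 0 at 2 hpf in knockout embryos. In wild-type embryos it had 49.7, 42.5 and 40.6 against no read in any of the 3 libraries, at least 54.5-fold higher. The span of sox12 overlaps that of pnp4a. Its relatives sox4a (ENSDARG00000004588), sox4b, sox11a and sox11b act with it in differentiating neurons. Values of sox4a rose by 3.49 in knockout and by 3.92 in wild-type embryos on the log2 scale.

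Forebrain and eye genes rose with them. The forebrain gene foxg1b averaged 54.02 at 48 hpf against 1.85 at 2 hpf in knockout embryos, and 20.4 against no read in wild-type embryos, at least 25.1-fold higher. The span of foxg1b overlaps that of acyp2. Its relative foxg1d rose by 4.15 in knockout and by 3.80 in wild-type embryos. Neither foxg1b nor foxg1d passed the filter on values at 2 hpf, so the filter favoured a rise. The eye and hindbrain regulator pax6a averaged 94.8 at 48 hpf against 27.1 at 2 hpf in knockout embryos, and 51.9 against 3.73 in wild-type embryos. Of the 8 Pax genes tested, 5 rose in knockout and 4 in wild-type embryos, and 0 fell in either genotype. The filter on values was passed by 5 Pax genes at 2 hpf and by 7 at 48 hpf, and it favoured a rise for those that passed only later.

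Between 48 and 96 hpf fewer members moved, as did fewer of all genes, and no Sox or Pax gene was called as rising. In knockout larvae 7 of 73 members rose and 12 fell, 26.0% beside 19.7% of all genes, of which 14% rose and 5.66% fell. In wild-type larvae 8 rose and 15 fell, 31.5% beside 28% of all genes, of which 19.7% rose and 8.3% fell. Of the 18 Sox genes, 0 rose and 7 fell in knockout and 0 rose and 9 fell in wild-type larvae, and of the 8 Pax genes 0 rose and 2 fell in knockout and 0 rose and 4 fell in wild-type larvae. Both Pax calls in knockout larvae, pax8 and pax2a, were lost with only the 2 groups compared in the fit. The members called in both genotypes numbered 11, which is 57.9% of those called in knockout and 47.8% of those called in wild-type larvae, and the direction was the same for all 11. Sharing over all genes was not counted at this step either. The median of all genes moved by 0.15 in knockout and by 0.20 in wild-type larvae, and with trimmed-mean rescaling by 0.00 in knockout and by 0.08 in wild-type larvae, where 5 members rose and 13 fell in knockout and 6 rose and 18 fell in wild-type larvae. Without 1 library in turn, the called members ranged from 12 to 15 in knockout and from 15 to 21 in wild-type larvae. With only the 2 groups compared in the fit, 12 were called in knockout larvae.

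The neuronal gene sox11b averaged 49.4 at 96 hpf against 120.0 at 48 hpf in knockout larvae and 18.4 against 106.9 in wild-type larvae, falls of 1.16 in knockout and 2.48 in wild-type larvae on the log2 scale. The call in knockout larvae was lost in 1 of 6 fits without 1 library and with only the 2 groups compared in the fit. The neural progenitor genes sox3 and sox19a fell in both genotypes, sox3 by 0.88 in knockout and by 1.95 in wild-type larvae. The gene tbx21, which in mammals directs type-1 T cells and natural killer cells, rose by 1.97 in knockout and by 2.58 in wild-type larvae. The Nodal pathway gene foxh1, a partner of Smad proteins, rose by 1.91 in knockout and by 1.84 in wild-type larvae, and foxk1, known in mammals for restraining autophagy genes, rose by 1.48 in knockout and by 1.19 in wild-type larvae, where its call was lost in 1 of 6 fits without 1 library. The FoxO gene foxo3a rose at both steps in both genotypes, by 0.91 in knockout and by 0.66 in wild-type larvae between 48 and 96 hpf. The second of these calls in wild-type larvae was lost in 4 of 6 fits without 1 library, without the filter on low values, with trimmed-mean rescaling, by edgeR, and with only the 2 groups compared in the fit.

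By stage of the highest mean in water, 26 of the 73 members peaked at 2 hpf, 25 at 48 hpf and 22 at 96 hpf in knockout groups, and 27 at 2 hpf, 30 at 48 hpf and 16 at 96 hpf in wild-type groups. The stage was the same in both genotypes for 52 members, namely 23 at 2 hpf, 19 at 48 hpf and 10 at 96 hpf. The Zic genes placed differently: 2 peaked at 2 hpf, 0 at 48 hpf and 4 at 96 hpf in knockout groups, and 3 at 2 hpf, 3 at 48 hpf and 0 at 96 hpf in wild-type groups. These are orders of means and carry no test, and the filter favours the stage through which a gene was admitted.

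The next comparisons set knockout against wild-type libraries at the same stage and in the same water or oxidant. At 2 hpf in water 9 of 49 members were higher and 5 lower in the knockout, 28.6% beside 31.3% of all 7783 genes tested, of which 15.9% were higher and 15.4% lower. In diquat 10 were higher and 7 lower, 34.7% beside 45% of all genes, 23.8% higher and 21.2% lower. In tBOOH 4 were higher and 4 lower, 16.3% beside 14.2% of all genes, 7.79% higher and 6.37% lower. These shares give no result about the members as a class, and what follows concerns single genes. The members called numbered 25 over these comparisons, 10 of them in at least 2, each in the same direction, with foxa1, foxd5 and pax6a among those called in all 3. Repeated calls were not counted over all genes, so this too gives no result about the members as a class.

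The eye and hindbrain gene pax6a was higher in knockout embryos at 2 hpf in each of the 3 media. It had 24.6, 34.6 and 22.03 in knockout against 5.36, 3.23 and 2.59 in wild-type embryos in water. The difference was 2.59 ± 0.36 (log2, SE, n = 3 each; limma adjusted p = 4.87e-06). The call in diquat, at 1.02, was lost in 3 of 6 fits without 1 library. Over the 9 libraries of each genotype, values ran from 13.95 to 34.6 in knockout and from 2.59 to 12.4 in wild-type embryos and did not overlap. The span of pax6a overlaps that of dnajc24, which stood at 0.911 to 5.51 in knockout and 0.814 to 4.03 in wild-type embryos at this stage.

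The SoxC genes sox11a and sox11b were also higher. Values of sox11a in water were 99.9, 78.4 and 121.2 in knockout against 38.3, 33.9 and 45.8 in wild-type embryos, a difference of 1.31 ± 0.20 (log2, SE, n = 3 each; limma adjusted p = 1.86e-05). Values of sox11b were 115.4, 66.5 and 172.6 in knockout against 44.4, 58.1 and 54.4 in wild-type embryos, a difference of 1.07 ± 0.23 (limma adjusted p = 0.00097, n = 3 each). No knockout library in water overlapped a wild-type one for either gene. In diquat the differences were 1.64 for sox11a and 1.07 for sox11b, both called, and in tBOOH 0.36 and -0.07, neither called. Their relative sox4b went the other way, with 0.704, 10.02 and 0.918 in knockout against 14.6, 12.9 and 16.4 in wild-type embryos in water (-2.24 ± 0.64, log2, SE; limma adjusted p = 0.00816, n = 3 each), and 1 knockout library stood far above its other 2. The sox4b call was lost in 2 of 6 fits without 1 library.

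The Fox genes went both ways. The forkhead gene foxp4, known in mouse from gut and lung development, had 11.3, 13.7 and 18.4 in knockout against 5.36, 3.23 and 1.73 in wild-type embryos in water, a difference of 1.86 ± 0.46 (log2, SE, n = 3 each; limma adjusted p = 0.00286). Lower values were found for foxd5, at 6.33, 4.56 and 9.18 in knockout against 13.0, 18.6 and 11.2 in wild-type embryos (-1.005 ± 0.34; limma adjusted p = 0.0234, n = 3 each). Over all 9 libraries of each genotype foxd5 did not overlap either, but it passed the filter value of 10 in wild-type libraries alone. Its call was lost in 3 of 6 fits without 1 library in water, in 5 of 6 in diquat and in 6 of 6 in tBOOH. The difference in foxh1, at 24.6, 20.0 and 29.4 in knockout against 41.4, 35.5 and 37.1 in wild-type embryos, was -0.62 ± 0.23 and lost its call in 5 of the 6 fits without 1 of these libraries. In water foxp1b, at 20.4, 18.2 and 25.7 in knockout against 4.60, 8.07 and 15.5 in wild-type embryos, and foxk2 were also higher, foxp1b by 1.24 and foxk2 by 0.75 on the log2 scale, and these calls were lost in 1 of 6 fits without 1 library for foxp1b and in 3 of 6 for foxk2. The FoxO gene foxo3a was called in diquat, at 7.004, 8.48 and 5.51 in knockout against 17.7, 18.4 and 17.0 in wild-type embryos, a difference of -1.24 ± 0.29. It was -0.51 in water and -0.31 in tBOOH, neither called.

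Single members of the other families were called too, in both directions. The pharyngeal arch gene tbx1 has 2 gene IDs in the table. The one with ID ENSDARG00000097046 had 294.9, 264.3 and 354.4 in knockout against 150.2, 181.5 and 205.5 in wild-type embryos in water, a difference of 0.76 ± 0.16 (log2, SE, n = 3 each; limma adjusted p = 0.000717), and 1.44 in diquat. The midbrain-hindbrain and kidney gene pax2a had 34.5, 48.3 and 38.6 in knockout against 30.6, 26.6 and 19.9 in wild-type embryos in water, a difference of 0.64 ± 0.24 (limma adjusted p = 0.0439, n = 3 each). The endoderm gene gata6 was called in diquat, at 63.0, 36.7 and 37.2 in knockout against 21.3, 11.998 and 15.5 in wild-type embryos, a difference of 1.43 ± 0.28 (limma adjusted p = 0.000188, n = 3 each). Lower in the knockout were pax3a in diquat, at -1.72 (limma adjusted p = 0.000697), and gata2a in tBOOH, at -0.98 (limma adjusted p = 0.046). Fits without 1 library lost the pax3a call in 0 of 6 and the gata2a call in 5 of 6.

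**Figure D1:**
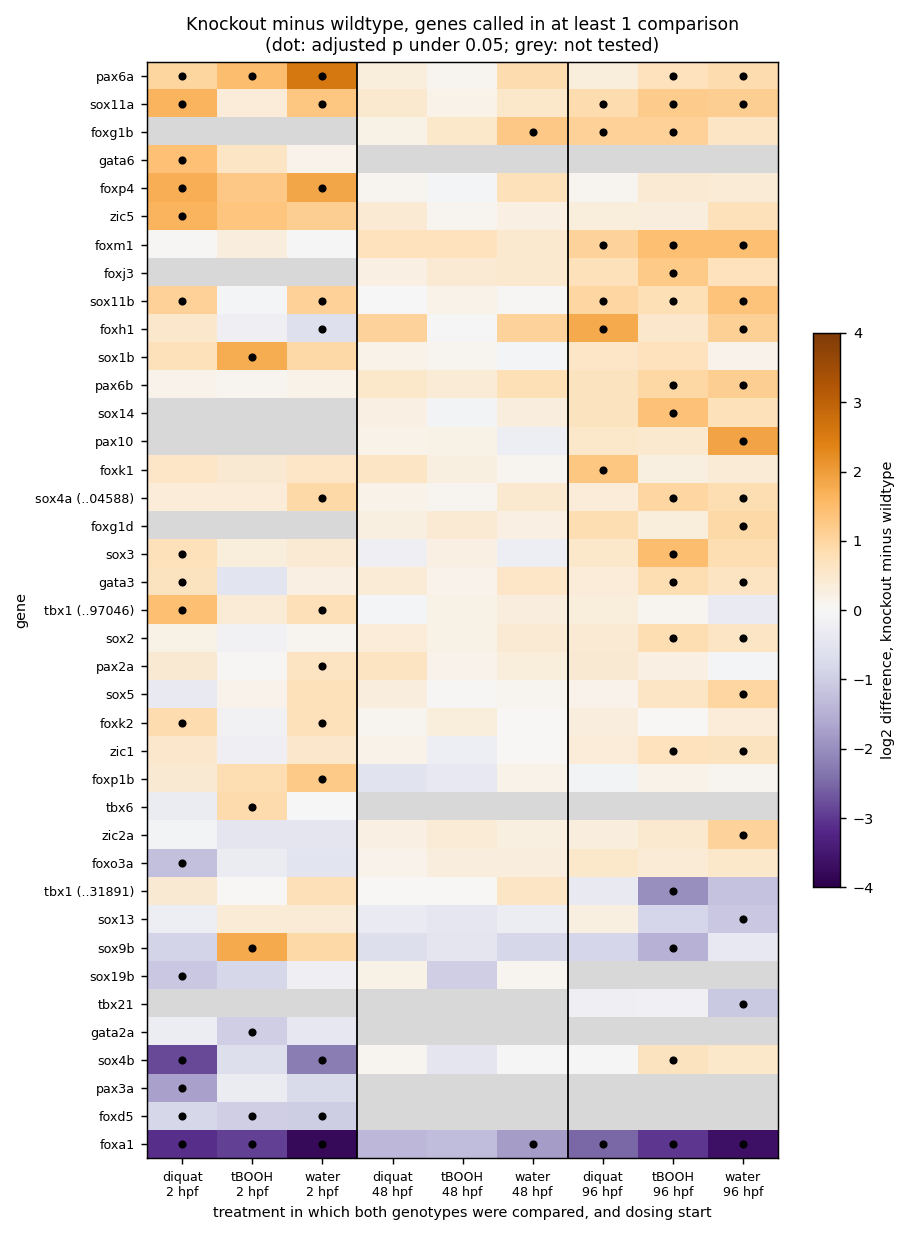
Difference between knockout and wild-type means of log2(value + 1) for 39 of the 40 members called in at least 1 of the 9 comparisons, by stage and by water, diquat or tBOOH. Dots mark calls at a limma adjusted p under 0.05 and grey cells were not tested. The foxa1 cells are negative in all 9 comparisons and marked in 7, and at 48 hpf the panel holds 2 calls.

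The pioneer factor foxa1, which opens chromatin in endoderm, liver, pancreas and floor plate, was lower in knockout libraries at each stage and in each medium. At 2 hpf in water it had 0, 0.911 and 0 in knockout against 11.5, 18.6 and 19.9 in wild-type embryos, a difference of -3.79 ± 0.53 (log2, SE, n = 3 each; limma adjusted p = 6.11e-06). At 96 hpf in water it had 0, 2.09 and 1.12 in knockout against 21.0, 23.2 and 23.6 in wild-type larvae (-3.65 ± 0.50; limma adjusted p = 3.49e-06, n = 3 each). Over all media, its 9 knockout libraries ran from 0 to 1.64 against 7.08 to 19.9 in wild type at 2 hpf, from 1.89 to 7.27 against 7.58 to 19.1 at 48 hpf, and from 0 to 5.25 against 9.92 to 27.2 at 96 hpf. No stage showed an overlap. No knockout library reached the filter value of 10, so foxa1 was tested through its wild-type libraries alone, which favoured this direction. Differences ranged from -3.79 to -1.31 over the 9 comparisons, and 7 of them were called. The span of foxa1 overlaps no other gene in the RefSeq table.

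Markers of organs in which foxa1 acts were lower in the knockout at some stages and not at others. The summed value of 3 liver markers at 96 hpf was 99.3 to 539.1 in knockout and 854 to 1233 in wild-type larvae. At 48 hpf it was 15.5 to 817 in knockout and 33.7 to 197 in wild-type embryos, and at 2 hpf 62.9 to 107.4 in knockout and 62.4 to 85.3 in wild-type embryos. The sum of the 2 exocrine pancreas markers in the table was 0 to 1.17 in knockout and 19.3 to 54.8 in wild-type embryos at 2 hpf. At 48 hpf that sum was 0 to 0.91 in knockout and 3.76 to 10.99 in wild-type embryos, and at 96 hpf 10.9 to 107.4 in knockout and 36.6 to 168.7 in wild-type larvae. In wild-type embryos the pancreas sum was thus higher at 2 than at 48 hpf, without overlap. Whether the liver and pancreas sums mark these organs at 2 hpf was not tested. The part of these markers in the foxa1 result was not tested either.

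At 48 hpf few members were called between the genotypes. In water 1 of 58 was higher and 1 lower in the knockout, 3.45% beside 2.49% of all 9725 genes tested, of which 1.51% were higher and 0.977% lower. In diquat 0 were called by limma or edgeR beside 1.13% of all genes, with 7 members at an unadjusted p under 0.05, and in tBOOH 0 by either tool beside 0.967%, with 5 members. The differences still lay more often above 0 than those of all genes. In water 44 of 58 members were above 0 beside 50.9% of all genes, in diquat 40 beside 49.9% and in tBOOH 33 beside 48.0%. The median difference of the members in water was 0.26 on the log2 scale beside 0.01 for all genes. The forebrain gene foxg1b had 76.0, 30.1 and 56.0 in knockout against 22.7, 16.1 and 22.4 in wild-type embryos in water, a difference of 1.28 ± 0.33 (log2, SE, n = 3 each; limma adjusted p = 0.0427). The other call was foxa1, at -1.80 ± 0.45 (limma adjusted p = 0.0376, n = 3 each). These calls were lost in 5 and in 4 of the 6 fits without 1 library, and none was left with only the 2 groups compared in the fit, against 0 to 5 calls over the fits without 1 library. Pools of a knockout group differed more than those of a wild-type group at this stage, as at the other stages. The mean chi-square of reads per degree of freedom was 4.28 in diquat, 9.5 in tBOOH and 7.67 in water in knockout groups. In wild-type groups it was 1.85 in diquat, 1.35 in tBOOH and 3.76 in water. Knockout groups ran from 4.02 to 5.34 at 2 hpf and from 1.7 to 8.97 at 96 hpf. Wild-type groups ran from 2.07 to 3.45 at 2 hpf and from 1.51 to 1.67 at 96 hpf. The part of this spread in the number of calls was not tested.

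At 96 hpf the differences ran mostly upward in the knockout. In water 15 of 56 members were higher and 3 lower, 32.1% beside 23% of all 11436 genes tested, and among all genes 9.92% were higher and 13.1% lower. In tBOOH 15 were higher and 3 lower, 32.1% beside 20.7% of all genes, 10% higher and 10.7% lower, and in diquat 6 were higher and 1 lower, 12.5% beside 14.1% of all genes, 6.28% higher and 7.81% lower. With trimmed-mean rescaling of the libraries the split in diquat was 5 higher and 2 lower. The median difference of the members in water was 0.51 on the log2 scale beside 0.04 for all genes, and 41 of the 56 members were above 0 beside 52.4% of all genes. The members called in at least 2 of the 3 media numbered 13 of 26, each in the same direction, with foxa1, foxm1, sox11a and sox11b in all 3. Repeated calls were not counted over all genes. The call of sox11a in diquat was lost in 4 of 6 fits without 1 library, without the filter on low values, with trimmed-mean rescaling and with only the 2 groups compared in the fit.

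By family in water at 96 hpf, 5 of 16 Sox genes were higher and 1 lower in knockout larvae. Of the 6 Pax genes 3 were higher, of the 5 Zic genes 3, of the 21 Fox genes 3 with 1 lower, and the 1 Gata gene tested was higher, whereas 0 of 7 Tbx genes were higher and 1 was lower. Family medians were 0.81 for Zic, 0.72 for Pax, 0.58 for Sox, 0.35 for Fox and -0.32 for Tbx genes.

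The forkhead gene foxm1, which drives mitotic genes in proliferating cells, had 158.1, 133.7 and 171.8 in knockout against 54.5, 47.3 and 66.4 in wild-type larvae in water. The difference was 1.45 ± 0.22 (log2, SE, n = 3 each; limma adjusted p = 1.32e-05). In diquat it was 1.04 and in tBOOH 1.45, and the 9 knockout libraries, at 115.5 to 230.0, did not overlap the 9 wild-type ones, at 47.3 to 94.5. At 2 hpf the difference in water was -0.05 and at 48 hpf 0.49, neither called. The span of foxm1 overlaps that of rhno1 and that of a protein-coding gene without a name.

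Several Sox genes were higher as well. The SoxC gene sox11b had 60.4, 37.6 and 50.2 in knockout against 21.0, 18.1 and 16.1 in wild-type larvae in water, a difference of 1.36 ± 0.27 (log2, SE, n = 3 each; limma adjusted p = 0.000404). Its relative sox11a had 48.3, 65.8 and 64.7 in knockout against 18.9, 35.2 and 27.8 in wild-type larvae, a difference of 1.13 ± 0.28 (limma adjusted p = 0.00391, n = 3 each). Over the 9 libraries of each genotype sox11a ran from 45.3 to 74.6 in knockout and from 14.3 to 39.5 in wild-type larvae, without overlap. The sox4a gene ENSDARG00000004588 was higher by 0.84 and the neural progenitor gene sox2, at 64.9 to 95.1 in the 9 knockout and 42.4 to 63.8 in the 9 wild-type libraries, by 0.61. The SoxD gene sox5, known from cartilage and glia, was called in water with 57.1, 47.0 and 52.4 in knockout against 27.2, 22.4 and 28.9 in wild-type larvae, a difference of 0.97 ± 0.23. In tBOOH 7 of 16 Sox genes were higher and 1 lower, beside 10% of all genes higher and 10.7% lower. The lower one was sox9b, at -1.50 (log2; limma adjusted p = 0.00662, n = 3 each), a call lost in 1 of 6 fits without 1 library.

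The Pax genes called were pax6b, pax6a and pax10. The eye and pancreas gene pax6b had 51.6, 34.5 and 43.5 in knockout against 13.6, 23.2 and 21.4 in wild-type larvae in water (1.13 ± 0.28, log2, SE; limma adjusted p = 0.00356, n = 3 each), and its 9 knockout libraries, at 25.7 to 51.6, lay above the 9 wild-type ones, at 13.2 to 24.0. The pax6-like gene pax10 had 9.88, 16.7 and 11.2 in knockout against 2.10, 2.58 and 3.21 in wild-type larvae in water (1.88 ± 0.43; limma adjusted p = 0.00185, n = 3 each). The difference in pax10 was 0.55 in diquat and 0.49 in tBOOH, neither called. Of these genes pax6b and pax6a were called in tBOOH as well.

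The Zic genes called at 96 hpf in water included zic2a and zic1. Values of zic2a, which acts in neural plate and forebrain, were 34.0, 36.5 and 22.3 in knockout against 10.5, 15.5 and 17.1 in wild-type larvae, a difference of 1.05 ± 0.31 (log2, SE, n = 3 each; limma adjusted p = 0.0138). The groups did not overlap, and the call was lost in 3 of 6 fits without 1 library. Without knockout replicate 1, knockout replicate 2 or wild-type replicate 1 the adjusted p was at most 0.0896. In diquat the difference was 0.31 and in tBOOH 0.49, neither called. Values of zic1, a gene of dorsal neural tube and somite, were 52.7, 53.3 and 54.7 in knockout against 31.4, 31.8 and 37.5 in wild-type larvae in water, a difference of 0.66 ± 0.22 (limma adjusted p = 0.0259, n = 3 each). The groups did not overlap in water, and the difference in tBOOH was 0.72, called, and in diquat 0.36, not called. The span of zic1 overlaps that of agtr1b.

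The Nodal pathway gene foxh1 had 74.6, 75.2 and 79.2 in knockout against 25.1, 35.2 and 46.1 in wild-type larvae in water at 96 hpf, a difference of 1.12 ± 0.27 (log2, SE, n = 3 each; limma adjusted p = 0.00263). In diquat the difference was 1.81, called, and in tBOOH 0.53, not called. The gene gata3 had 64.8, 61.6 and 55.8 in knockout against 28.3, 43.0 and 47.1 in wild-type larvae, a difference of 0.64 ± 0.21 (limma adjusted p = 0.0305, n = 3 each). Neither gene overlapped between the groups in water.

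Besides foxa1, the lower members in water were tbx21 and sox13. Values of tbx21 were 15.4, 13.6 and 7.81 in knockout against 31.4, 18.1 and 31.1 in wild-type larvae (-1.08 ± 0.34, log2, SE; limma adjusted p = 0.0228, n = 3 each), and this call was lost in 3 of 6 fits without 1 library. Values of sox13 were 7.68, 8.35 and 5.58 in knockout against 15.7, 17.2 and 17.1 in wild-type larvae (-1.12 ± 0.41; limma adjusted p = 0.0441, n = 3 each), a call lost in each of the 6 fits. In tBOOH the second tbx1 gene, ENSDARG00000031891, had 3.03, 3.40 and 4.32 in knockout against 19.8, 17.5 and 13.8 in wild-type larvae, a difference of -1.97 ± 0.47.

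**Figure D2:**
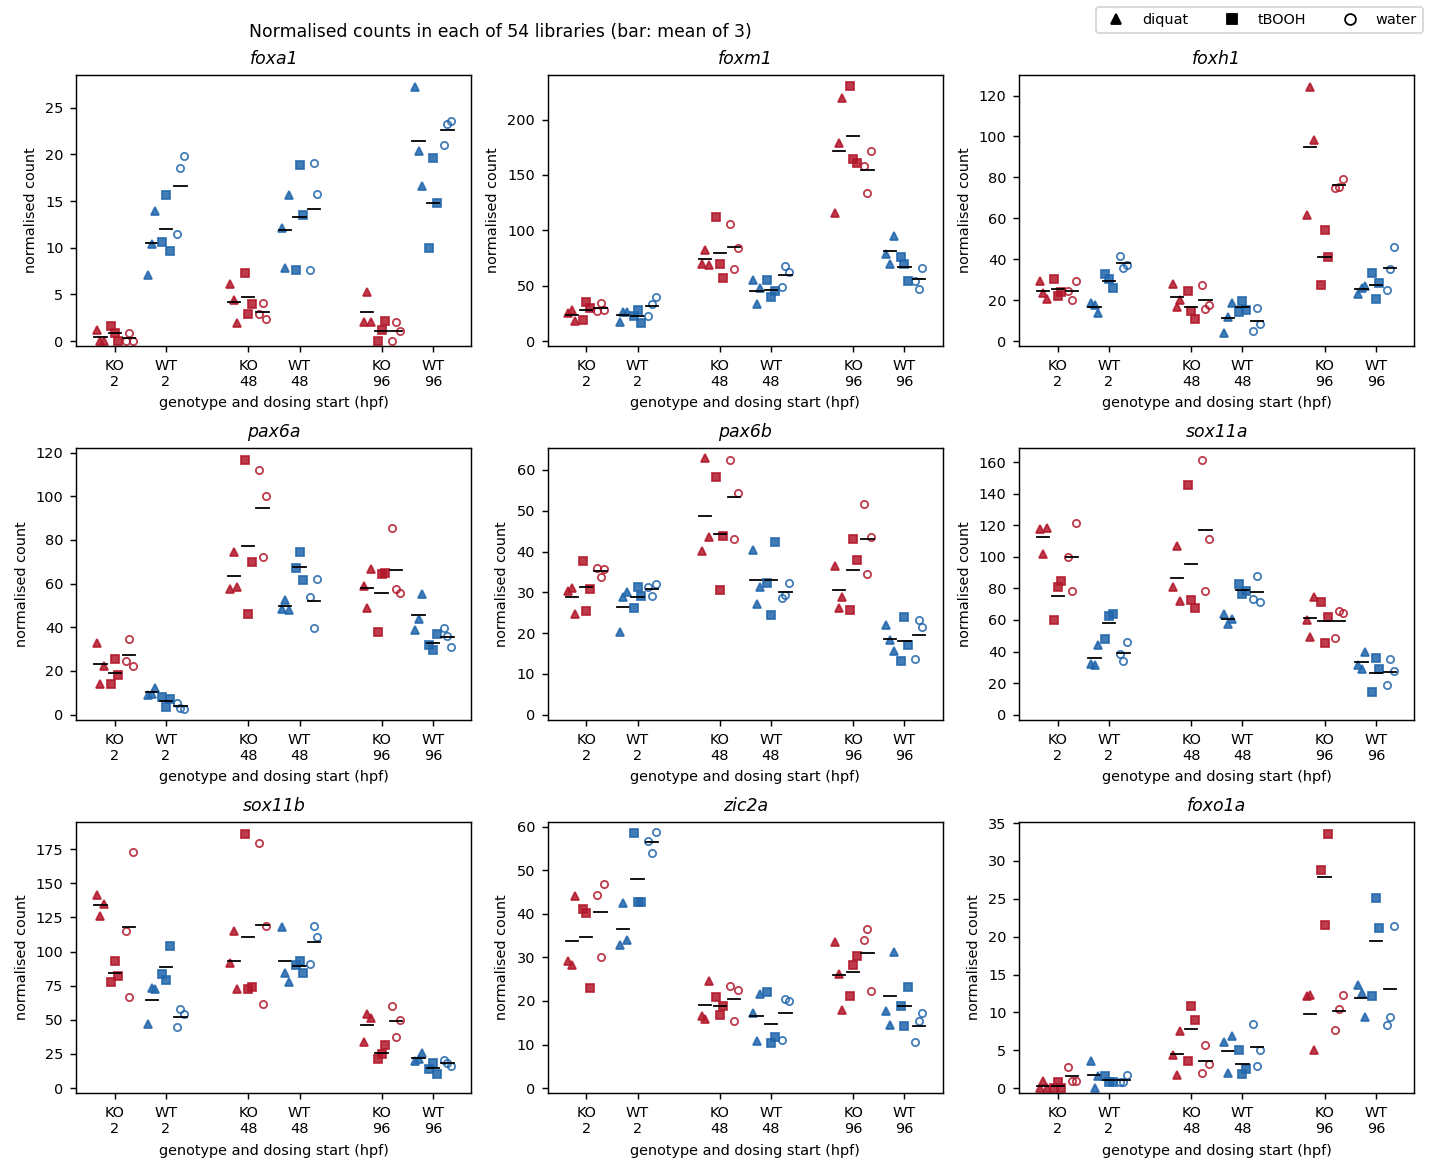
Normalised counts of 9 members in each of the 54 libraries, with knockout libraries left of wild-type ones at each stage and marks for water, diquat and tBOOH. Values of foxa1 are lower in knockout than in wild-type libraries at each stage, and those of foxm1, sox11a and pax6b at 96 hpf are higher without overlap.

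Counted over whole ranges, 8 of 56 members lay above and 1 below wild type in all 9 knockout libraries at 96 hpf, beside 3.67% of all genes above and 4.18% below. Those above were foxg1b, foxj3, foxm1, gata3, pax6b, sox11a, sox2 and sox4a ENSDARG00000004588, and the one below was foxa1. At 2 hpf 1 of 49 lay above and 2 below, beside 4.93% and 3.51% of all genes, and at 48 hpf 0 of 58 lay above and 1 below, beside 0.483% and 0.823%. The members below were foxa1 and, at 2 hpf, foxd5. None of their knockout libraries reached the filter value of 10 at these stages, so they were tested through wild-type libraries alone and the filter favoured this direction.

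Neuron markers were higher in the knockout at 96 hpf as well. The summed value of 3 neuron markers was 557 to 740 in knockout and 309 to 412 in wild-type larvae at 96 hpf, without overlap. At 48 hpf it was 367 to 601 in knockout and 317 to 430 in wild-type embryos, and at 2 hpf 4.91 to 19 in knockout and 3.26 to 7.73 in wild-type embryos. The summed value of 4 muscle markers at 96 hpf was 8760 to 11843 in knockout and 6344 to 7948 in wild-type larvae. At 48 hpf that sum was 4148 to 7507 in knockout and 6952 to 8868 in wild-type embryos. The markers of eye tissues overlapped between the genotypes at 96 hpf. The sum of 4 photoreceptor markers was 1080 to 1927 in knockout and 798 to 1569 in wild-type larvae. For 3 lens markers it was 239 to 1287 in knockout and 753 to 1102 in wild-type larvae. The part of these markers in the results for Sox, Pax and Zic genes was not tested.

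Lists of other genes from the tissues these regulators act in were read at 96 hpf in water, where 9.92% of all genes were higher and 13.1% lower in knockout larvae. These lists and those below were chosen with earlier results of these data known, so their counts only describe the listed genes. Of 12 tested genes of anterior neural plate, eye and hindbrain, 5 were higher and 0 lower in knockout larvae, with a median of 0.79 beside 0.04 for all genes. The retinal bipolar cell gene vsx1 averaged 35.1 in knockout and 12.8 in wild-type larvae, and the retinal gene rx1 37.1 in knockout and 14.4 in wild-type larvae. Of 11 glial genes 3 were higher and 1 lower, led by fabp7a, of 10 neural crest genes 3 were higher and 0 lower, led by tfap2b (ENSDARG00000012667), and of 10 motile cilia genes 2 were higher and 0 lower, namely rfx2 and dnaaf1.

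In the lists of cartilage, blood and heart no gene was called higher. Of 14 cartilage and skeleton genes 0 were higher and 11 lower in knockout larvae, with a median of -0.89. The collagen gene col1a1a averaged 331 in knockout and 907 in wild-type larvae, and col10a1a 5.75 in knockout and 51.4 in wild-type larvae. Of 8 erythroid and thrombocyte genes 0 were higher and 5 lower, among them alas2, the first enzyme of haem synthesis in red cells, at 292 in knockout and 2291 in wild-type larvae. Of 10 heart genes 0 were higher and 3 lower, among them myl7, a cardiac myosin light chain, at 7.84 in knockout and 51.4 in wild-type larvae. None of these genes is a member, and the lists say nothing of which member acts on them.

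At most 1 gene was called in each of the remaining lists. Of 6 midline and endoderm genes and of 8 vascular genes 0 were called in water at 96 hpf, of 12 pigment cell genes 1 was lower, of 8 placode and ear genes 1 was lower, and of 3 gastrula genes 1 was higher. Among 11 other T-box genes, cofactors and partners 1 was called, zfpm2a, a cofactor of Gata proteins. It was higher in the knockout by 3.73 at 2 hpf, 2.47 at 48 hpf and 1.85 at 96 hpf in water on the log2 scale.

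The stage course itself was compared between the genotypes, as the knockout step minus the wild-type step in water. Between 2 and 48 hpf the steps of 6 of 73 members differed, 3 more positive and 3 more negative in the knockout, 8.22% beside 4.05% of all genes, 1.72% more positive and 2.33% more negative. This comparison was added after the data had been seen. The call of pax6a held in each fit without 1 library and was lost with a pseudocount of 5. It rose by 1.77 in knockout and by 3.50 in wild-type embryos, and the difference of the steps was -1.73 (limma adjusted p = 0.00613). Over fits without 1 library 1 to 4 members were called, and 2 were called without the filter on low values or with only the water groups of these stages. Between 48 and 96 hpf the steps of 0 members differed by limma beside 1.89% of all genes, with 13 members at an unadjusted p under 0.05 and 1 called by edgeR.

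Few members were called in the oxidant comparisons. With counts this small, their shares beside those of all genes give no result about the members as a class. At 2 hpf, in knockout embryos, 0 rose and 1 fell in diquat, beside 3.74% of all genes, of which 3.11% rose and 0.63% fell, and 0 were called in tBOOH, beside 0% of all genes, with 2 members at an unadjusted p under 0.05 and 0 by edgeR. In wild-type embryos at 2 hpf, 0 rose and 1 fell in diquat, beside 0.964% of all genes, of which 0.36% rose and 0.604% fell, and 0 were called in tBOOH, beside 2.83%, with 7 members at an unadjusted p under 0.05 and 4 called by edgeR.

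The gene that fell in wild-type embryos in diquat was foxh1, at 18.6, 17.6 and 13.9 in diquat against 41.4, 35.5 and 37.1 in water. The difference was -1.15 ± 0.23 (log2, SE, n = 3 each; limma adjusted p = 0.00689), the groups did not overlap, and the call was lost in 2 of 6 fits without 1 library. In knockout embryos foxh1 had 29.2, 23.6 and 20.7 in diquat against 24.6, 20.0 and 29.4 in water. The difference between the 2 responses was 1.14 with an adjusted p of 0.0959 by limma. The neural crest gene pax3a fell in knockout embryos, at 4.67, 2.83 and 1.38 in diquat against 9.15, 13.7 and 6.43 in water (-1.47 ± 0.39; limma adjusted p = 0.0394, n = 3 each). No call was left for knockout embryos in diquat under edgeR, under another scaling of the libraries, without the filter on low values, or with only the 2 groups compared in the fit.

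At 48 hpf 0 members were called by limma, and 0 by edgeR, in any of the 4 oxidant comparisons. In knockout embryos this stands beside 0% of all genes in diquat, with 4 members at an unadjusted p under 0.05, and 0.195% in tBOOH, with 0. In wild-type embryos it stands beside 0.0411% in diquat, with 1 such member, and 0.165% in tBOOH, with 5. At 96 hpf 0 members were called by limma or edgeR in knockout larvae in diquat, beside 0.315% of all genes and with 6 members at an unadjusted p under 0.05. In wild-type larvae at 96 hpf 0 were called by limma or edgeR in diquat, beside 0.245% and with 2 such members, and 0 in tBOOH, beside 2.3% and with 5.

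Knockout larvae in tBOOH at 96 hpf had 1 member that rose and 2 that fell, 5.36% beside 7.49% of all genes, of which 5.46% rose and 2.04% fell. The gene that rose was foxo1a, a FoxO factor that insulin signalling keeps out of the nucleus and that drives fasting and stress genes. It had 28.7, 21.5 and 33.5 in tBOOH against 7.68, 10.4 and 12.3 in water in knockout larvae, a difference of 1.38 ± 0.38 (log2, SE, n = 3 each; limma adjusted p = 0.0199), without overlap. In wild-type larvae it had 12.1, 25.1 and 21.2 in tBOOH against 8.38, 9.46 and 21.4 in water, which overlapped, a difference of 0.60 ± 0.38 (limma adjusted p = 0.613). The difference between the 2 responses was 0.78 ± 0.53 with an adjusted p of 0.904 by limma, so a difference between the genotypes was not shown. The span of foxo1a overlaps that of slc25a15a and that of a noncoding RNA gene.

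The other FoxO genes were not called in this comparison, and foxo3b and foxo4 are named here after their values were seen. The value of foxo3a differed by 0.18 ± 0.21 (log2, SE), that of foxo3b by 0.55 ± 0.28 and that of foxo4 by 0.69 ± 0.23 (limma adjusted p = 0.0617, n = 3 each) between tBOOH and water in knockout larvae.

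The 2 members that fell in these larvae were foxh1, at 27.2, 54.4 and 41.1 in tBOOH against 74.6, 75.2 and 79.2 in water (-0.94 ± 0.27, log2, SE; limma adjusted p = 0.0268, n = 3 each), and sox11b. Values of sox11b were 21.2, 24.9 and 31.4 in tBOOH against 60.4, 37.6 and 50.2 in water (-0.90 ± 0.27; limma adjusted p = 0.0342, n = 3 each). Neither overlapped. The calls of foxo1a, foxh1 and sox11b were lost in 4, 5 and 4 of the 6 fits without 1 library. These fits called 0 to 2 members, and edgeR called 5.

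**Figure D3:**
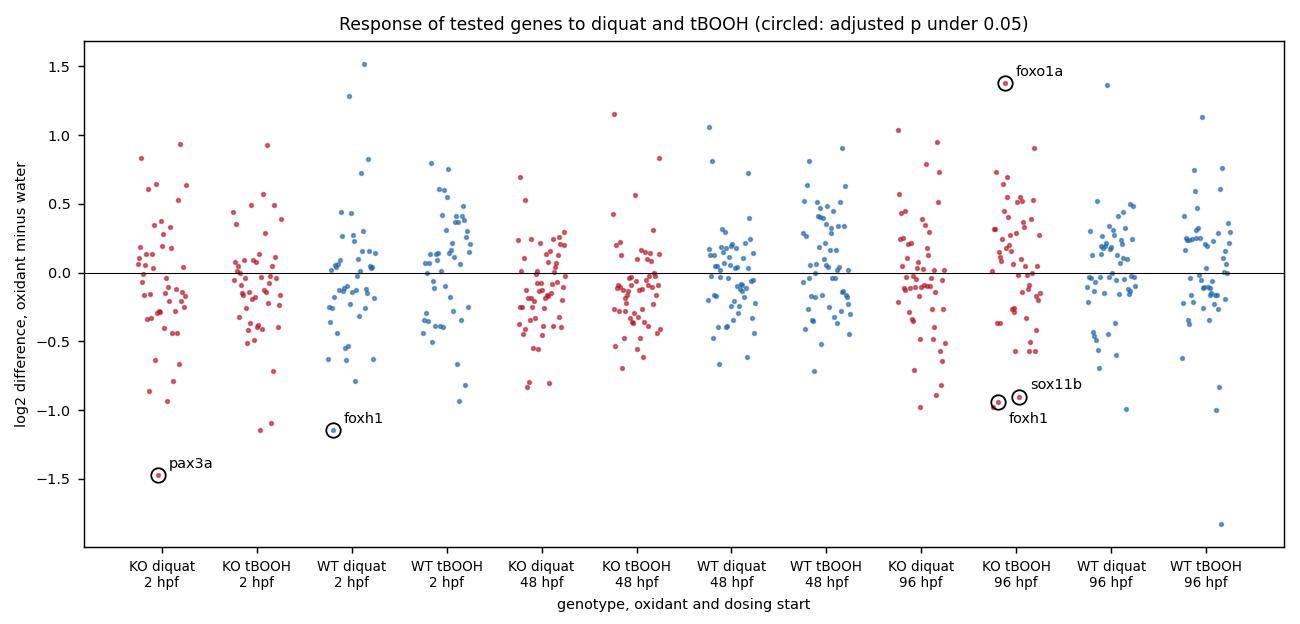
Difference between oxidant and water means of log2(value + 1) for all tested members but 1 in the 12 oxidant comparisons (3 libraries per group), with the called members circled and named. The circled points are foxh1 in wild-type embryos in diquat and pax3a in knockout embryos in diquat at 2 hpf, and foxo1a, foxh1 and sox11b in knockout larvae in tBOOH at 96 hpf.

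A list of genes that FoxO factors are known to regulate was read beside foxo1a. It was chosen with earlier results of these data known, so its counts beside all genes only describe the listed genes. Of its 26 genes tested at 96 hpf, 13 rose and 0 fell in knockout larvae in tBOOH, with a median of 0.96 beside 0.00 for all genes, of which 5.46% rose. In wild-type larvae 4 rose and 0 fell, with a median of 0.36 beside 0.00 for all genes, of which 1.53% rose. The pyruvate dehydrogenase kinase gene pdk2b averaged 413 in tBOOH and 38.6 in water in knockout larvae, and 222 in tBOOH and 54.6 in water in wild-type larvae. The gluconeogenic gene pck1 averaged 64.9 in tBOOH and 7.33 in water in knockout larvae. In the difference between the genotypes' responses 0 of the 26 were called. Whether foxo1a acted on any of these genes was not tested.

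Between the genotypes in water at 96 hpf, 3 genes of that list were higher and 4 lower in knockout larvae, beside 9.92% of all genes higher and 13.1% lower. The gene pck1 averaged 7.33 in knockout and 90.2 in wild-type larvae, and pdk4 19.4 in knockout and 46.9 in wild-type larvae. In tBOOH 10 of the 26 were higher and 3 lower in knockout larvae, beside 10% of all genes higher and 10.7% lower.

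The responses of the 2 genotypes to an oxidant did not differ for any member by limma at an adjusted p under 0.05, and edgeR called 0 as well at each stage. At 2 hpf 0 of 49 members were called for diquat, beside 0.938% of all genes and with 6 members at an unadjusted p under 0.05, and 0 for tBOOH, beside 0.0128% and with 7. Leaving out 1 library gave 0 to 2 calls for diquat and 0 to 3 for tBOOH. At 48 hpf 0 of 58 were called for either oxidant, beside 0% of all genes and with 1 member at an unadjusted p under 0.05 for each. At 96 hpf 0 of 56 were called for diquat, beside 0.00874% and with 7 members, and 0 for tBOOH, beside 0.324% and with 2.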

How the data were processed

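Poly(A) RNA from 54 pools was sequenced as 50-base paired strand-specific libraries. Per the submitters' processing notes, the authors used FastQC 0.11.4, TopHat2 2.0.14, Bowtie2 2.2.5, SAMtools 0.1.19, HTSeq, DESeq2 1.10.1 and R 3.2.3 with the GRCz10 genome, and the strand setting of HTSeq is not given in the sources used here. The deposited signal values are counts divided by a size factor (0.571 to 1.42). Whole reads were recovered from them by the step between low values: 100% of values in each library came out whole within 0.01 read, although 3 libraries have size factors within 0.01 of 1, where this decides little.

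The genes and lists described, the rule for named genes and the tests were chosen with earlier results of these data known. The rule named, in each comparison, the 8 greatest rises and 8 greatest falls among called members whose higher group averaged 10 or more, the 3 members of each family with the highest mean, and up to 3 called genes of each other list with the smallest p. The deposited values were tested as log2(value + 1) with limma 3.58.1 (R 4.3.3, trended empirical Bayes) on the 18 libraries of a stage, or on all 54 for steps between stages, over 7783, 9725, 11436 and 13205 genes passing the filter. Replicates are separate pools, and p-values and standard errors measure the spread between pools. That spread was estimated over all groups of a fit and drawn toward that of other genes, so it is not the spread of the compared groups alone. Where knockout pools spread more than wild-type pools, the shared estimate can be too wide for wild-type groups and too narrow for knockout groups. The test was run on simulated data first. Alternatives were a pseudocount of 5, no filter, rescaling by trimmed means, a replicate block, a fit of the compared groups only, edgeR 4.0.16 on the recovered reads, and leaving out each library. Same-numbered libraries did not meet the limit set for pairing, a correlation of deviations over 0.1 in every pair. Gene spans and neighbours came from the RefSeq GRCz12tu gene table, whose coordinates are not used. Sequences of the genes are not used here, and 1 member, kept in all counts, is not reported here by name.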

Additional observations from a re-analysis of the deposited data

Results flagged for a closer look

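Members whose step from 2 to 48 hpf in water differed between the genotypes, by limma's test of the knockout step minus the wild-type step with adjustment over 13205 genes, were 6 of 73, 5 of them given here, beside 4.05% of all genes. The comparison was added after the data were seen. The difference was 2.19 on the log2 scale for sox4b (adjusted p = 0.0336), which rose by 4.11 in knockout and by 1.92 in wild-type embryos. It was 1.67 for foxh1 (adjusted p = 0.029), at -0.31, not called, in knockout and -1.98 in wild-type embryos. It was -1.96 for foxg1a (adjusted p = 0.0427), which rose by 1.66 in knockout and by 3.61 in wild-type embryos, where its 2 hpf libraries held no read. It was -1.76 for the cartilage and neural crest gene sox9b (adjusted p = 0.0499), which rose by 1.49 in knockout and by 3.25 in wild-type embryos. It was -1.73 for pax6a (adjusted p = 0.00613). Fits without 1 library lost the calls of sox9b, sox4b, foxg1a and foxh1 in 10, 10, 8 and 6 of 12. The call of pax6a was lost in 0 of 12. A pseudocount of 5 lost the calls of pax6a and foxg1a. Dropping the filter on low values lost those of sox9b, sox4b, foxg1a and foxh1, and so did a fit restricted to the water libraries of these stages. The call of pax6a held under both of these alternatives.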

How the results depend on the processing

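Of 444 counts of called members under the alternatives, 380 stayed within 1.5 times the value given and 64 did not. A count of 0 that stayed at 0 is among the 380, so this total overstates how well counts above 0 held. Leaving out 1 library moved 9 of 12 counts for the genotype difference in the step from 2 to 48 hpf. It moved 6 of 6 for knockout against wild type in water at 48 hpf, and 0 of 6 for the step from 2 to 48 hpf in either genotype. Calls of named genes kept their direction in each of 1590 values, and 212 lost their call. No result was reversed. Knockout against wild type in water at 48 hpf had 2 calls, and 1 under trimmed-mean rescaling, without the filter or with the replicate block, and 0 with only the groups compared. Knockout diquat at 2 hpf had 1, and 0 under rescaling, edgeR, no filter or compared groups only, and 2 with the replicate block. Wild-type diquat at 2 hpf had 1, edgeR 2 and compared groups only 3. Wild-type tBOOH at 2 hpf had 0, and 1 with a pseudocount of 5 or rescaling, 4 with the replicate block or edgeR and 3 with compared groups only. Wild-type tBOOH at 96 hpf had 0, and 1 with compared groups only, and knockout tBOOH at 96 hpf had 3, and 5 by edgeR. The knockout step from 48 to 96 hpf had 19, and 12 with compared groups only. The genotype difference had 6 calls in the step from 2 to 48 hpf, and 2 without the filter or with compared groups only, and 0 in the step from 48 to 96 hpf, and 1 with a pseudocount of 5 or edgeR. The cause of these moves was not tested.

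Leaving out each library in turn gave 9 to 13 calls for knockout against wild type in water and 4 to 9 in tBOOH at 2 hpf, and 0 to 5 in water at 48 hpf. It gave 0 to 3 for knockout diquat, 0 to 1 for wild-type diquat and 0 to 3 for wild-type tBOOH at 2 hpf, and 0 to 2 for knockout tBOOH and 0 to 1 for wild-type tBOOH at 96 hpf. The genotype difference in the response at 2 hpf had 0 to 2 for diquat and 0 to 3 for tBOOH. The steps from 48 to 96 hpf had 12 to 15 in knockout and 15 to 21 in wild-type larvae, and the genotype difference in the steps 1 to 4 from 2 to 48 hpf and 0 to 2 from 48 to 96 hpf.

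Same-numbered libraries correlated at a mean of 0.0377, -0.00964 and -0.000254 at 2, 48 and 96 hpf, beside -0.0189, 0.00486 and 0.000309 for other numbers. At these stages 11, 4 and 8 of 18 libraries correlated best with their own number. The limit set for pairing was not met, so the replicate block is given only here. Whether pools were paired at 2 hpf was not tested further. Libraries held a median of 0.772 M reads in genes, and 26 members held under 54 reads in all. The filter on values admitted 73 of the 127 members to the fit of all stages, and the others were not compared in it.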
